A study of Mus musculus with 9 samples.

Results

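The genes described here encode the subunits of the mitochondrial respiratory chain and ATP synthase, measured in hippocampal synaptoneurosomes of Fmr1 KO mice on the C57Bl/6J strain. Members were chosen by gene symbol: the Nduf, Sdh, Uqcr, Cyc1, Cox5 to Cox8 and Atp5 subunit families and the genes carried by mitochondrial DNA, without the Ndufaf assembly factors and without Atp5s, Atp5sl and Atp5if1. They came to 97 of the 22255 genes of the table, 84 nuclear encoded and 13 mitochondrially encoded. All 9 samples carry the Fmr1 knockout, a model of fragile X syndrome, and samples of wild-type mice are not analysed here. Sub-chronic AM6545 was given in 4 samples (replicates A, B, C and E). AM6545 blocks the cannabinoid receptor CB1 and enters the brain poorly. The 5 controls (replicates A to E) had vehicle. Dose, age and sex are not given in the labels used here. The labels do not say whether a sample is 1 animal or a pool, so p-values measure the spread between these samples, which may be in part technical.

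Synaptoneurosomes are a fraction of brain homogenate enriched in pinched-off synaptic terminals with their mitochondria and local RNA. In the inner mitochondrial membrane, complex I and complex II pass electrons from NADH and succinate to ubiquinone, complex III passes them on to cytochrome c, and complex IV reduces oxygen. Complexes I, III and IV pump protons, and complex V, the ATP synthase, uses the proton gradient to make the ATP that drives ion pumps and vesicle cycling at synapses. Mitochondrial DNA codes for a small set of hydrophobic subunits. The others are nuclear encoded, translated in the cytosol and imported.

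Promoters of nuclear subunit genes are known for sites of the factors NRF1 and GABP (NRF2), which tie their transcription to that of the mitochondrial genome's own machinery. RefSeq promoter windows (GRCm38.p6, 250 bases before to 50 after the annotated start, the first window listed per gene) were matched to 68 of the 84 nuclear members. The 10-base palindromic core of the NRF1 site, with its 1 free base, was found on either strand in 23.5% of these 68 windows, against 9.69% of 11466 windows of tested genes and 4.78% of all 27025 windows. The YY1 pattern AAGATGGC was in 13.2% of members and 4.31% of tested genes, and the GABP pattern CCGGAAG in 22.1% and 16.6%. The SP pattern GGGCGG was less frequent in members (39.7%) than in tested genes (62.9%). In all, 8 patterns were searched. The other searches were TATAAA (10.3% of members and 7.22% of tested genes), CCAAT (42.6% and 38.4%), GCATGC (17.6% and 9.62%) and the NRF1 core with its free base fixed (7.35% and 1.94%), which is contained in the first pattern and contains GCATGC. A match is a description of letters, not of a site in use.

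The following 4 upstream stretches, 250 bases each, were chosen after the matches were seen, to show the NRF1 pattern in genes whose means stood lower in AM6545 samples (Atp5h, Atp5k and Ndufs6) and in a gene whose mean stood higher (Sdha). Capitals mark matches to the NRF1, GABP or YY1 pattern on either strand. Each runs 5′ to 3′ toward the start.
Atp5h, subunit d of ATP synthase, chr11:115419920-115420169, minus strand: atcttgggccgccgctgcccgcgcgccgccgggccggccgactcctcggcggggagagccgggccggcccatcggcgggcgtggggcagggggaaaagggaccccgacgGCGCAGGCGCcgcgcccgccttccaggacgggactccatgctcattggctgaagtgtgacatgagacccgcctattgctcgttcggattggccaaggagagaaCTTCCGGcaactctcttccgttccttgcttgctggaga
Atp5k, subunit e of ATP synthase, chr5:108434400-108434649, minus strand: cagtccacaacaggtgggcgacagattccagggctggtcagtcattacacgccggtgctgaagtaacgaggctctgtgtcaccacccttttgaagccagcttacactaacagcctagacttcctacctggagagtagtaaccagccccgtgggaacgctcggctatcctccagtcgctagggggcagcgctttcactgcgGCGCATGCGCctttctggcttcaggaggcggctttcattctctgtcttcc
Ndufs6, an accessory subunit of complex I, chr13:73328483-73328732, minus strand: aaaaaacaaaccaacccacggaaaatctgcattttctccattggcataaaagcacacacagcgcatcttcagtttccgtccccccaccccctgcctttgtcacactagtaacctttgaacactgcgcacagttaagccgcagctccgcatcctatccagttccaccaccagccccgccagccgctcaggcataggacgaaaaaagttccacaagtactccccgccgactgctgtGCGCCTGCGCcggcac
Sdha, the flavoprotein of complex II, chr13:74350241-74350490, minus strand: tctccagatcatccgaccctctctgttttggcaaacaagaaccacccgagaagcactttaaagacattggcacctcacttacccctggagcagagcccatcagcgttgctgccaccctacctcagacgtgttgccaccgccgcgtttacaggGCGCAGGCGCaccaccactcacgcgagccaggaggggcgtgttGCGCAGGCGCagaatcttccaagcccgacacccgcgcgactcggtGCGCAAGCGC
The Sdha stretch holds the NRF1 pattern 3 times. Over all matched members that were tested, the 16 genes with the NRF1 pattern had a median log2 fold change of -0.23 and the 51 without it -0.30.

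Total counts ran from 17628922 to 27263393 per sample. Fmr1 (ENSMUSG00000000838.18), the gene knocked out in all animals, had 199 to 310 counts in every sample, at 10.1 ± 0.754 CPM in AM6545 samples and 11.7 ± 1.18 CPM in vehicle samples (SD). Which part of the gene is altered is not given in the labels used here, so this level does not check them. CPM are counts relative to the library total after TMM scaling. The neuronal markers (Snap25, Syt1, Slc17a7 and 5 others) were above 0 in every sample, with a summed level of 6660 to 7750 CPM in AM6545 and 6336 to 8422 CPM in vehicle samples. Oligodendrocyte markers, also above 0 throughout, summed to 13099 to 18815 CPM and 10736 to 22474 CPM in the same order of groups.

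Of the 97 members, 94 had enough counts to be tested. Cox8b, Cox8c and a second row named Atp5o (ENSMUSG00000116933.2, 0 to 3 counts) did not. None of the 94 passed an adjusted p of 0.05 (edgeR's quasi-likelihood test, Benjamini-Hochberg over 14512 genes), and neither did any other gene. The smallest adjusted p was 0.653, over members and over all genes alike. At an unadjusted p under 0.05, 30 members were lower and 0 higher in AM6545 samples, all 30 nuclear encoded. The background is 4.18% of all tested genes lower and 3.03% higher at the same threshold, 7.21% in both directions. Of the 81 nuclear members tested, 71 had a negative log2 fold change, beside 7516 of the 14512 tested genes. The median over nuclear members was -0.29, against -0.01 over all tested genes. Ranges of CPM that did not overlap between groups were found in 0 members, against a background of 1.45% of all tested genes (0.868% lower and 0.579% higher in AM6545). In 57 of the 81 nuclear members all 4 AM6545 samples lay below the vehicle mean. The same count was not made over all tested genes, so it has no background. In a fraction of tissue, a smaller amount of material that carries a transcript and less of that transcript per unit of material cannot be told apart.

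**Figure D1:**
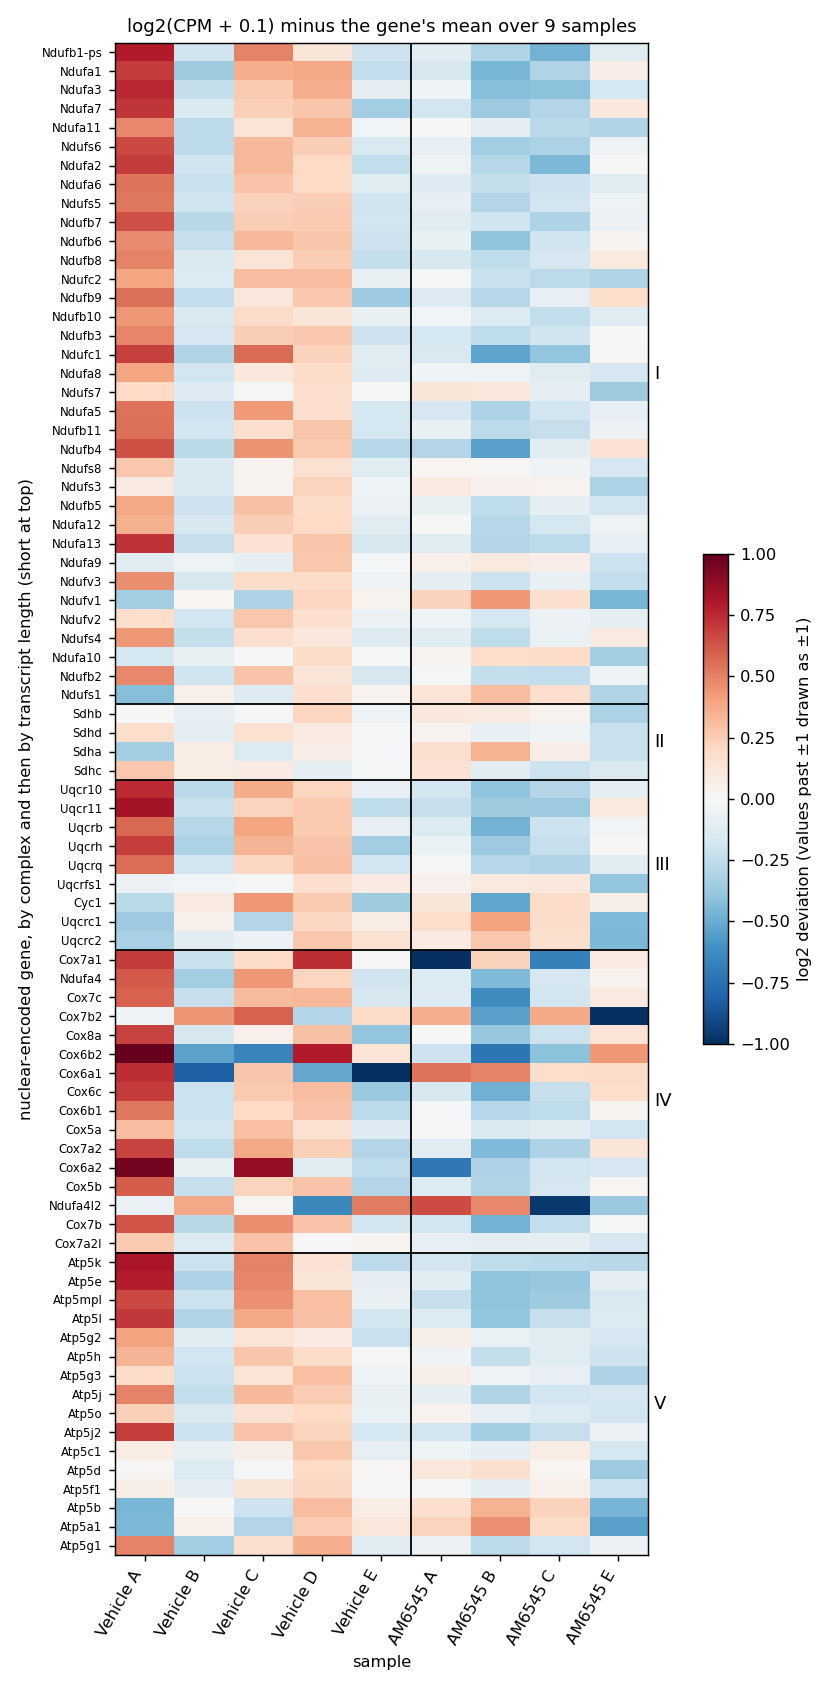
Each row is 1 of 80 of the 81 tested nuclear-encoded genes, grouped by complex (I to V, right) and ordered within a complex by transcript length with short genes at the top (Ndufb1-ps, without a length, stands first), and each column is a sample. Color gives log2(CPM + 0.1) minus the gene's mean over the 9 samples. Vehicle A, C and D are high in most rows, vehicle B and E resemble the AM6545 samples, and in long catalytic subunits such as Atp5b, Ndufv1 and Sdha vehicle A and C are low while vehicle D is not.

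Complex I, the entry point for electrons from NADH, had 36 nuclear members, of which 32 had a negative log2 fold change and 16 an unadjusted p under 0.05. All 16 were accessory subunits, which surround the core subunits and do not carry the redox centers. Ndufc2 (ENSMUSG00000030647.9) was at 89.2, 76.9, 75.0 and 73.2 CPM in AM6545 A, B, C and E, and at 118, 81.8, 111, 112 and 85.5 CPM in vehicle A to E. Vehicle A, C and D lay above every AM6545 sample, while vehicle B and E fell inside the AM6545 range. Its log2 fold change was -0.37 (SE 0.12, edgeR unadjusted p = 0.00902).

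Ndufa3 (ENSMUSG00000035674.14), another small accessory subunit, was at 37.8, 29.0, 29.3 and 34.4 CPM in AM6545 A, B, C and E and at 65.7, 33.0, 46.7, 50 and 36.6 CPM in vehicle A to E. The order of the samples was similar to that of Ndufc2, with vehicle B and E again within the AM6545 range. The log2 fold change of Ndufa3 was -0.50 (SE 0.17, edgeR unadjusted p = 0.0109). Ndufc1, a subunit of the membrane arm, had -0.51 (edgeR unadjusted p = 0.0155), with 49.4 ± 8.28 CPM in AM6545 (SD, n = 4) and 70.5 ± 20.2 CPM in vehicle (SD, n = 5). Ndufb1-ps, the annotation's name for the gene of the small B1 subunit, had -0.50 (edgeR unadjusted p = 0.0184). The 29 accessory subunits had a median log2 fold change of -0.31, and 28 of them were negative. The exception was Ndufa10 at 0.04.

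The 7 nuclear core subunits of complex I hold the flavin and the iron-sulfur clusters of the catalytic arm. Their median log2 fold change was -0.06, with 4 negative, 3 positive and none at an unadjusted p under 0.05. The sign of this median was not stable: it was 0.02 without AM6545 E, 0.03 with limma-voom sample weights, 0.07 with the length trend removed and 0.04 without vehicle A and AM6545 E together. Without AM6545 E, 1 core subunit was higher at an unadjusted p under 0.05, where 12.6% of all tested genes passed in both directions. Ndufv1 (ENSMUSG00000037916.15), which binds NADH and the flavin, was at 389, 447, 372 and 242 CPM in AM6545 A, B, C and E, and at 261, 337, 268, 385 and 341 CPM in vehicle A to E. The lowest sample was AM6545 E, followed by vehicle A and vehicle C, and the groups overlapped over nearly their whole range. The log2 fold change was 0.19 (SE 0.16, edgeR unadjusted p = 0.272). Ndufs1, the largest iron-sulfur subunit, had 0.14 (SE 0.14). Ndufs3 had -0.06, Ndufs7 and Ndufs8 -0.09 each, and Ndufv2 -0.17 (edgeR unadjusted p = 0.126), the lowest of the 7.

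The contrast between the accessory and core subunits could be read within each sample as the difference of their mean log2 CPM. It was -1.45 ± 0.26 (SD, n = 4) after AM6545 and -1.18 ± 0.29 (SD, n = 5) after vehicle. AM6545 ran from -1.69 in replicate B to -1.08 in replicate E, and vehicle from -1.44 in replicate E to -0.75 in replicate A, so the groups overlapped. The difference between the 2 groups is a description and was given no p.

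Complex II links the tricarboxylic acid cycle to the chain and has no mitochondrially encoded subunit. Its 4 genes had a median log2 fold change of -0.09 (0.011 with the length trend removed), and none had an unadjusted p under 0.05. Sdha (ENSMUSG00000021577.15), which oxidizes succinate and whose promoter is shown above, was at 835, 954, 781 and 641 CPM in AM6545 A, B, C and E and at 591, 790, 680, 783 and 742 CPM in vehicle A to E. Vehicle A was the lowest of the 9 samples and AM6545 B the highest. The log2 fold change of Sdha was 0.16 (SE 0.13, edgeR unadjusted p = 0.235). Sdhb, the iron-sulfur subunit, had -0.03, and the membrane anchors Sdhc and Sdhd had -0.14 each. The smallest p of the complex was that of Sdhd (edgeR unadjusted p = 0.157), at 158 ± 11.7 CPM in AM6545 (SD, n = 4) and 174 ± 13.4 CPM in vehicle (SD, n = 5).

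Complex III, cytochrome bc1, had 9 nuclear members with a median log2 fold change of -0.33, and 4 of them had an unadjusted p under 0.05. These were the small subunits Uqcr10, Uqcrb, Uqcrq and Uqcr11. Uqcr10 (ENSMUSG00000059534.9) was at 65.7, 56.3, 60.8 and 69.9 CPM in AM6545 A, B, C and E and at 125, 61.7, 96.5, 86.5 and 70.5 CPM in vehicle A to E. Here vehicle E was just above the AM6545 range and vehicle B inside it. The log2 fold change was -0.48 (SE 0.17, edgeR unadjusted p = 0.0131). The larger subunits had values nearer 0, and the difference between the subunits was not tested. Uqcrfs1, the Rieske iron-sulfur protein, had -0.06, Cyc1, cytochrome c1, had -0.08, and the core proteins Uqcrc1 and Uqcrc2 had 0.16 and 0.04. Uqcrc1 (ENSMUSG00000025651.15) was at 664, 775, 668 and 432 CPM in AM6545 A, B, C and E and at 457, 608, 479, 678 and 619 CPM in vehicle A to E. AM6545 E, vehicle A and vehicle C were its 3 lowest samples, as they were for Ndufv1.

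**Figure D2:**
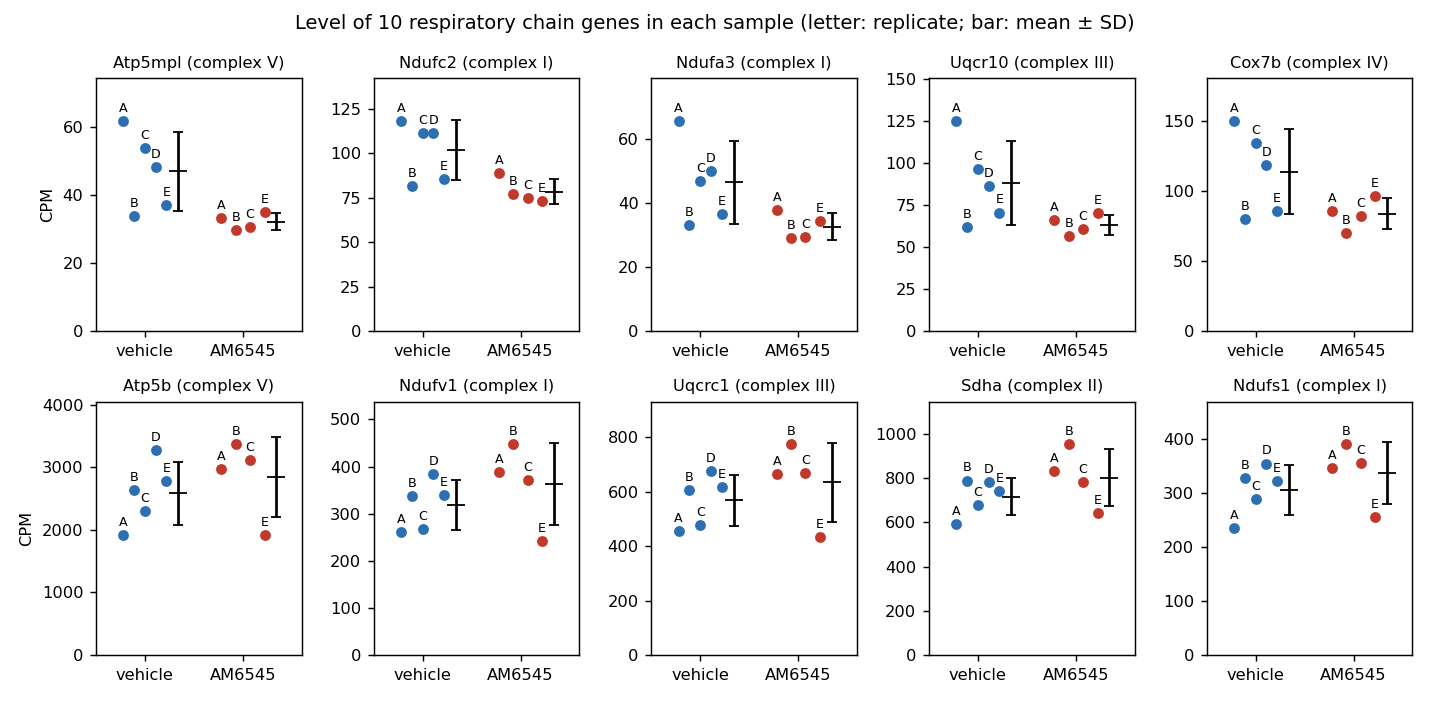
Each panel shows the CPM of 1 gene (axis from 0) in the 5 vehicle (blue) and 4 AM6545 (red) samples, lettered by replicate, with the group mean and SD as a bar. In the upper 5 genes vehicle A, C and D are high, as in Atp5mpl at 61.9, 53.8 and 48.2 CPM. In the lower 5 genes AM6545 E and vehicle A are the lowest samples, as in Atp5b at 1914 and 1921 CPM.

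Complex IV, cytochrome c oxidase, counted 18 nuclear members here, Ndufa4 and Ndufa4l2 included because Ndufa4 is now known as one of its subunits, and 16 were tested. Their median log2 fold change was -0.35, 15 were negative and 3 had an unadjusted p under 0.05. The smallest p was that of Cox7b (ENSMUSG00000031231.5) at 85.8, 70.1, 82.3 and 96.8 CPM in AM6545 A, B, C and E and 150, 80.3, 134, 119 and 85.7 CPM in vehicle A to E. Vehicle B and E were again inside the AM6545 range. Its log2 fold change was -0.44 (SE 0.17, edgeR unadjusted p = 0.0219). Cox7c had -0.39 and Ndufa4 -0.36. Cox8a, another small membrane subunit, had -0.24, with 375 ± 58.2 CPM in AM6545 (SD, n = 4) and 444 ± 131 CPM in vehicle (SD, n = 5).

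Several complex IV subunits exist as a broadly expressed and a muscle, heart, lung or testis isoform. Per kilobase of transcript, Cox7a2 stood at 238 ± 68.1 CPM per kb in vehicle samples (SD, n = 5), against 2.45 ± 0.793 for Cox7a1, the heart and muscle isoform. Cox8b was listed with 1 to 28 counts per sample and Cox8c with 0 counts in all 9, so neither was tested. For Cox6a no such wide gap was seen. Cox6a1 (ENSMUSG00000041697.10), the broadly expressed isoform, had 28 to 83 counts per sample and Cox6a2, the muscle isoform, 42 to 133. Per kilobase, Cox6a1 stood at 5.58 ± 0.774 and Cox6a2 at 4.22 ± 0.714 CPM per kb in AM6545 samples (SD, n = 4). In vehicle samples the order was the other way, at 3.96 ± 2.26 and 6.98 ± 2.99 CPM per kb (SD, n = 5). Cox6a1 stood far below the other broadly expressed nuclear subunits of complex IV in the set, at a mean of 2.26 CPM in vehicle samples. The lowest vehicle mean among those others was 114 CPM, in Cox7b. No other annotated transcript matched Cox6a1 at 95% identity over 200 bases, and where its reads were counted was not tested. The order of the Cox6a isoforms and the log2 fold change of Cox6a1 rest on these few counts, which may not hold all reads of the gene. Cox6a1 had the highest log2 fold change of all members, 0.52 (SE 0.33, edgeR unadjusted p = 0.133), at 3.62, 3.52, 2.79 and 2.82 CPM in AM6545 A, B, C and E and 4.16, 1.35, 3, 1.69 and 1.10 CPM in vehicle A to E. The vehicle samples spanned a wider range than the AM6545 samples, above and below them. Cox6a2 had -0.70 (SE 0.27, edgeR unadjusted p = 0.0223), from 2.87 ± 0.485 CPM in AM6545 (SD, n = 4) and 4.75 ± 2.03 CPM in vehicle (SD, n = 5). Of the muscle markers, 2 of 6 were tested, and their summed level was 18.2 to 22.2 CPM in AM6545 and 19.5 to 25.8 CPM in vehicle samples. Their part in these isoforms was not tested. The remaining isoforms were Cox6b2 at -0.52, Cox7a1 at -0.63, Cox7b2 at -0.39 and Ndufa4l2 at -0.03, with 4.04 CPM as the highest level among them in any sample.

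ATP synthase has a catalytic F1 head in the matrix and an Fo part with stalks in the membrane. Of 11 tested Fo and stalk genes all had a negative log2 fold change, with a median of -0.28, and 6 had an unadjusted p under 0.05. Atp5mpl (ENSMUSG00000021290.7), a small membrane subunit, had the smallest p of all members: it was at 33.4, 29.6, 30.5 and 35.1 CPM in AM6545 A, B, C and E and at 61.9, 33.7, 53.8, 48.2 and 37.2 CPM in vehicle A to E. Vehicle B was inside the AM6545 range, and the other 4 vehicle samples were above it. Its log2 fold change was -0.54 (SE 0.16, edgeR unadjusted p = 0.00367, adjusted p = 0.653). Atp5k and Atp5h, whose promoters are shown above, had -0.50 and -0.28. Atp5j, coupling factor 6 of the peripheral stalk, had -0.36 (edgeR unadjusted p = 0.0182) and Atp5l, subunit g, -0.44 (edgeR unadjusted p = 0.0212).

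The 5 genes of the F1 head had a median log2 fold change of -0.02. It was 0.08 without AM6545 E, 0.02 without vehicle D, 0.01 with the replicate block, 0.04 with sample weights, 0.07 with the length trend removed, 0.04 with it removed by the median of all coding transcripts and 0.08 without vehicle A and AM6545 E together. Atp5b (ENSMUSG00000025393.13), the catalytic beta subunit, was at 2975, 3368, 3109 and 1914 CPM in AM6545 A, B, C and E and at 1921, 2635, 2294, 3276 and 2781 CPM in vehicle A to E. AM6545 E and vehicle A were nearly equal and below all other samples. The log2 fold change of Atp5b was 0.14 (SE 0.18, edgeR unadjusted p = 0.455), and that of Atp5a1, the alpha subunit, 0.17 (SE 0.19). Atp5c1, the rotating gamma subunit, had -0.11 and Atp5d, delta, -0.02. The exception in the head was Atp5e, the small epsilon subunit, at -0.49 (SE 0.19, edgeR unadjusted p = 0.0198).

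The genes Atp5g1, Atp5g2 and Atp5g3 encode the same mature c subunit of the Fo ring and differ in their import sequences. Per kilobase, Atp5g3 was highest at 438 ± 59.8 CPM per kb in vehicle samples (SD, n = 5), with Atp5g2 at 102 ± 17.5 and Atp5g1 at 74.5 ± 17.1. On this scale Atp5g3 did not overlap the others in any sample, while Atp5g2 and Atp5g1 overlapped between samples. Before division by length, the vehicle means of Atp5g3, Atp5g2 and Atp5g1 were 315, 60.04 and 199 CPM. Atp5g1, at 142.7 to 254.3 CPM in vehicle samples, then lay above Atp5g2, at 48.83 to 75.51 CPM, without overlap. Their order per kilobase therefore rests on the annotated lengths, 2675.5 bases for Atp5g1 and 586 for Atp5g2. In the same order, Atp5g3, Atp5g2 and Atp5g1 had log2 fold changes of -0.17, -0.15 and -0.28, none with an unadjusted p under 0.05. Among nuclear members, the gene of each complex with the highest level per kilobase in vehicle samples was Ndufb9 for I (533 ± 139 CPM per kb), Sdha for II (247 ± 28.6), Cyc1 for III (576 ± 134), Cox8a for IV (807 ± 238) and Atp5b for V (1347 ± 267; SD, n = 5 each). Ndufb9 shares over 200 bases at 95% identity or more with another gene of the table, as do Atp5o, Atp5l and Cox5b, so how the authors' counting split their reads is uncertain. Levels per kilobase rest on 1 annotated length per gene.

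The samples ordered the nuclear members in a regular way. Vehicle D lay above the whole AM6545 range in 69 of 81 nuclear members, vehicle A in 64 and vehicle C in 58, but vehicle E in 7 and vehicle B in 2. Over all tested genes the shares were 22.8% for vehicle D, 30.4% for vehicle A and 29.6% for vehicle C, against 18.9% for vehicle E and 14.3% for vehicle B. Vehicle B was inside the AM6545 range in 75 of 81 members and vehicle E in 70. Vehicle A was the highest of the 9 samples in 58 of 81 members, against 17.9% of all tested genes. The mean log2 CPM over nuclear members was 6.97, 6.42, 6.78, 6.79 and 6.47 in vehicle A to E and 6.54, 6.42, 6.44 and 6.46 in AM6545 A, B, C and E. The 4 AM6545 samples lay close together, and the vehicle samples spread from their level upward.

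Of the single samples left out in turn, vehicle A lowered the count of members at an unadjusted p under 0.05 furthest and brought the nuclear median closest to 0. Without vehicle A the nuclear median log2 fold change was -0.18, and 5 members were lower and 1 higher at an unadjusted p under 0.05. In that fit 1.82% of all tested genes were lower and 3.43% passed in both directions. Without vehicle B, 47 members were lower, beside 6.83% of all tested genes. With both vehicle A and AM6545 E left out, a choice made after seeing the data, the median was -0.20, with 11 lower and 2 higher. Of all tested genes 3.37% were then lower and 8.59% passed in both directions. No member passed an adjusted p of 0.05 under any of these settings.

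The members differ in transcript length, and so did their log2 fold changes. Nuclear members had a median length of 810 bases, against 2970 over other tested genes. Bins of length, bounded after the data were seen, gave a median log2 fold change of -0.39 over 24 members under 600 bases, -0.30 over 27 from 600 to 1000, -0.09 over 22 from 1000 to 2000 and 0.04 over 7 longer ones. Genes outside the set had medians in the same bins of -0.30, -0.20, -0.06 and 0.02. Of the 136 other genes under 600 bases, 32.4% were lower at an unadjusted p under 0.05, beside 14 of 24 members. Across genes, Spearman's rho of log2 fold change with length was 0.72 over 80 members and 0.26 over 14345 others, and genes share the same libraries. Over the same 80 members, rho of log2 fold change with mean log2 CPM was 0.66. Length was not tested apart from level. Many accessory and Fo subunits are short and many catalytic cores long, with exceptions on both sides. At 1000 bases or more were the accessory subunits Ndufa9 (1445 bases, -0.002), Ndufa10 (2020 bases, 0.04), Ndufa12 (1110 bases, -0.24) and Ndufa13 (1251 bases, -0.38). So were Ndufb2 (2413 bases, -0.26), Ndufb5 (1079 bases, -0.29), Ndufs4 (1698 bases, -0.17) and Ndufv3 (1582 bases, -0.30). The Fo genes of that length were Atp5g1 (2675.5 bases, -0.28) and Atp5f1 (1604 bases, -0.13). The core subunits Ndufs7 (870.5 bases) and Ndufs8 (980 bases) were short, at -0.09 each. Atp5e of the F1 head (421 bases) was at -0.49. These genes were named after their values were seen, and role was not tested apart from length.

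**Figure D3:**
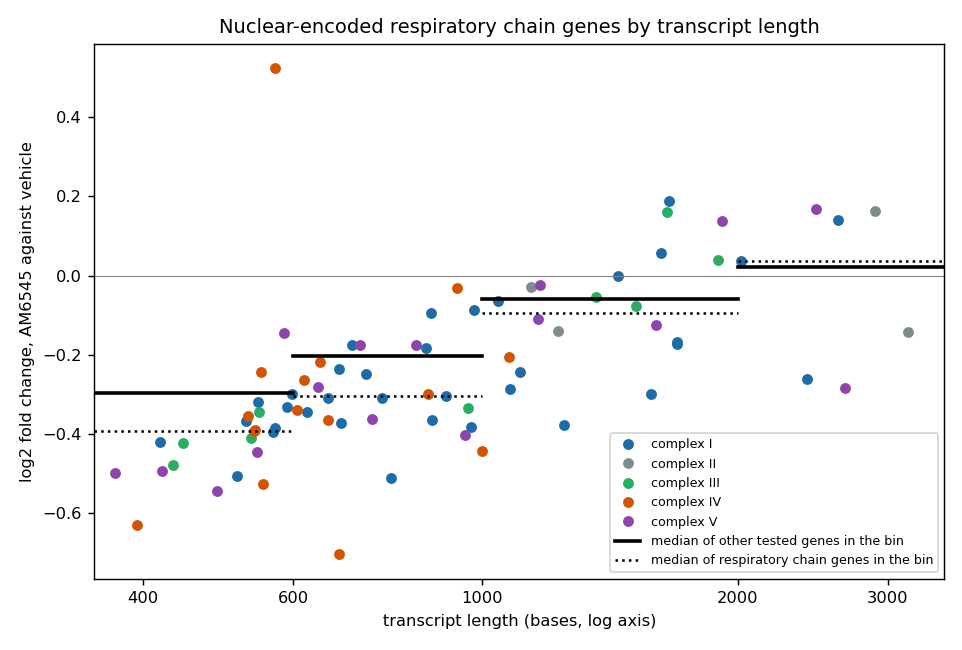
Points are nuclear members colored by complex, with transcript length in bases on a log axis and the log2 fold change of AM6545 against vehicle on the other. Solid bars give the median of other tested genes and dotted bars that of the members in each bin of length. Both rise with length, from -0.30 and -0.39 under 600 bases to 0.02 and 0.04 at 2000 bases or more.

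With each sample's trend of counts with length removed, the median log2 fold change over nuclear members was -0.06. Over all members, 3 were lower and 2 higher at an unadjusted p under 0.05. The 3 lower and 1 of the higher members were nuclear encoded. The other higher member was mt-Atp8, at 0.28 (edgeR unadjusted p = 0.0443, adjusted p = 0.745). Of all tested genes 3.16% were lower in that fit and 5.63% passed in both directions. The nuclear median depended on how a gene's length was defined. Length here is the median over the principal (APPRIS) transcripts of a gene. With the median over all its protein-coding transcripts the nuclear median was -0.19 with 14 members lower, beside 3.57% of all tested genes. That definition was tried first and was replaced after its value had been seen, because it gave implausibly short lengths to long subunit genes. Which of these lengths matches the transcripts in the fraction was not tested.

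The 13 mitochondrially encoded genes made up 4.06% (vehicle E) to 7.90% (vehicle A) of counts per sample. All 13 had a negative log2 fold change, with a median of -0.12, and none had an unadjusted p under 0.05. For mt-Co1 (ENSMUSG00000064351.1), the catalytic subunit of complex IV, the levels were 9581, 8473, 12647 and 13717 CPM in AM6545 A, B, C and E and 16018, 10967, 9122, 13801 and 7319 CPM in vehicle A to E. The vehicle samples included both the highest and the lowest of the 9. The log2 fold change of mt-Co1 was -0.04 (SE 0.22, edgeR unadjusted p = 0.846). Vehicle A was the highest sample in 13 of 13 genes and vehicle E the lowest in 12 of 13. AM6545 E, low in the nuclear cores, was the highest AM6545 sample in mt-Co1. Vehicle C, high in nuclear members, was above the AM6545 range in 1 of 13. Without vehicle A the median of the 13 was 0.01.

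The largest difference of the 13 was that of mt-Nd3 (ENSMUSG00000064360.1), a small subunit of complex I's membrane arm, at -0.37 (SE 0.24, edgeR unadjusted p = 0.137). It was at 105, 90.0, 129 and 142 CPM in AM6545 A, B, C and E and at 234, 117, 144, 176 and 82.1 CPM in vehicle A to E. Vehicle A was its highest sample and vehicle E its lowest. The other subunits of complex I ranged from -0.18 for mt-Nd6 through -0.16 for mt-Nd2, -0.12 for mt-Nd4l, -0.11 for mt-Nd1 and -0.09 for mt-Nd4 to -0.02 for mt-Nd5. The remaining genes were mt-Cytb of complex III at -0.08, mt-Co2 and mt-Co3 of complex IV at -0.15 and -0.17, and mt-Atp8 and mt-Atp6 of complex V at -0.22 and -0.12.

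**Figure D4:**
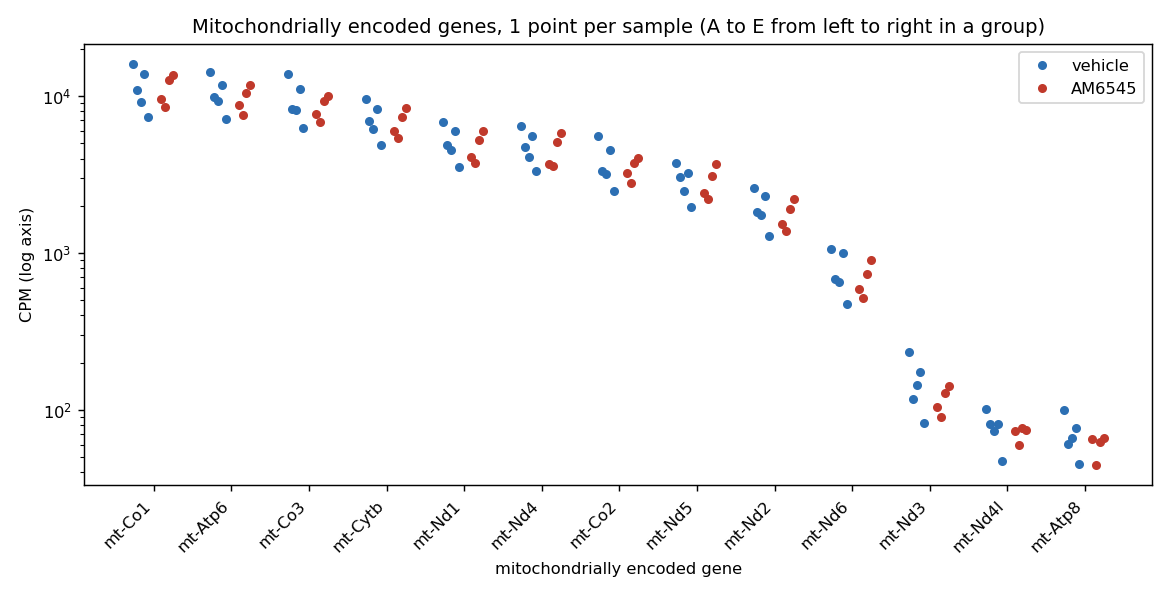
CPM on a log axis of the 13 mitochondrially encoded genes, with 1 point per sample (blue vehicle, red AM6545, replicates from left to right). The 5 vehicle samples enclose the AM6545 samples in most genes. The genes fall from 16018 CPM for mt-Co1 in vehicle A to 44.3 CPM for mt-Atp8 in AM6545 B.

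Mitochondrial transcripts are cut from long polycistronic precursors, and mt-Atp8 and mt-Atp6, like mt-Nd4l and mt-Nd4, overlap on shared messages. Per kilobase in vehicle samples, mt-Atp6 stood at 15323 ± 3900 CPM per kb and mt-Atp8 at 341 ± 99.1 (SD, n = 5). The pair mt-Nd4 and mt-Nd4l stood at 3515 ± 882 and 260 ± 65.0 CPM per kb (SD, n = 5). The 3 lowest levels per kilobase were those of mt-Nd4l, mt-Atp8 and mt-Nd3, whose annotated transcripts of 297, 204 and 348 bases are the shortest of the 13, and how reads over short overlapping models were assigned is not given in the sources used here. mt-Nd6 is read from the other strand than the rest, and the strand setting of the counting is not given in the sources used here. The mitochondrial ribosomal and transfer RNAs were not analysed here.

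Genes around the chain were described by lists. Over all tested genes, 7516 of 14512 had a negative log2 fold change, and 4.18% were lower and 3.03% higher at an unadjusted p under 0.05. Of 49 tested assembly factors, which build the complexes, 41 had a negative log2 fold change, with a median of -0.12, and 8 were lower and 0 higher at an unadjusted p under 0.05. Cox17, a copper chaperone for complex IV, had -0.43 (edgeR unadjusted p = 0.0165). Of 5 tested genes listed as related to the chain but outside the symbol rule, 4 had a negative log2 fold change, and 3 of them an unadjusted p under 0.05. These 3 were Ndufab1, Cycs and Cox20, an assembly factor that is also among the 8. The list included Cycs, cytochrome c, at -0.40 (edgeR unadjusted p = 0.00978), Ndufab1 at -0.28 and Cox4i1, the largest nuclear subunit of complex IV, at -0.20. Of 24 import and cristae genes 16 had a negative log2 fold change, and 7 were lower at an unadjusted p under 0.05, among them Tomm5 of the outer membrane pore at -0.39. Of 17 tricarboxylic acid cycle genes 12 had a positive log2 fold change, with a median of 0.05 and 0 at an unadjusted p under 0.05. Of 16 glycolysis genes 14 were positive, with a median of 0.18 and 1 higher, Hk1, the main hexokinase of brain, at 0.46 (edgeR unadjusted p = 0.0285). The tested genes of these 2 lists had median transcript lengths of 2544 and 2135 bases, longer than the members. Lists with negative medians were also longer than the members. The genes outside the symbol rule had a median length of 2387 bases and a median log2 fold change of -0.28. The values were 1636 bases and -0.12 for assembly factors, and 1437 bases and -0.14 for import and cristae. Of the lists below, biogenesis regulators had 4167 bases and -0.06, and mitochondrial DNA genes 2704 bases and -0.07.

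Of 13 tested regulators of mitochondrial biogenesis, 8 had a negative and 5 a positive log2 fold change, and 0 were lower and 1 higher at an unadjusted p under 0.05. The 1 was Pprc1, a relative of Ppargc1a, at 0.35 (edgeR unadjusted p = 0.0161). Ppargc1a, the coactivator of mitochondrial biogenesis, was at 49.2 ± 2.31 CPM in AM6545 (SD, n = 4) and 51.8 ± 7.65 CPM in vehicle (SD, n = 5), a log2 fold change of -0.07. Tfam, which packages and transcribes mitochondrial DNA, had -0.08, and Lrpprc, which stabilizes mitochondrial messages, 0.31 (edgeR unadjusted p = 0.0812). The mitochondrial RNA polymerase gene Polrmt had 0.45 (edgeR unadjusted p = 0.00281), at 22.9 ± 3.80 CPM in AM6545 (SD, n = 4) and 16.7 ± 1.78 CPM in vehicle (SD, n = 5). Slirp, the partner of Lrpprc, had -0.47 (edgeR unadjusted p = 0.00954). Of the 22 tested genes for maintenance and expression of mitochondrial DNA, 2 were lower and 1 higher at an unadjusted p under 0.05. The background for both lists is 4.18% of all tested genes lower and 3.03% higher.

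Markers of other cells differed between the same samples. The 7 choroid plexus markers (Ttr and others) summed to 693, 542, 60.6 and 932 CPM in AM6545 A, B, C and E and to 4002, 307, 47.6, 4334 and 2141 CPM in vehicle A to E. Vehicle A and D were high in these markers and in the nuclear members, while vehicle C was the lowest sample in the markers and high in the members. Vehicle E was above every AM6545 sample in the markers, and within the AM6545 range in 70 of 81 nuclear members. Ependymal markers summed to 17.2 to 21.1 CPM in AM6545 and 17.2 to 38.4 CPM in vehicle samples, and erythrocyte markers to 255 to 717 CPM and 290.1 to 1239 CPM, each highest in vehicle A. The part of these cells in the members' levels was not tested.

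**Figure D5:**
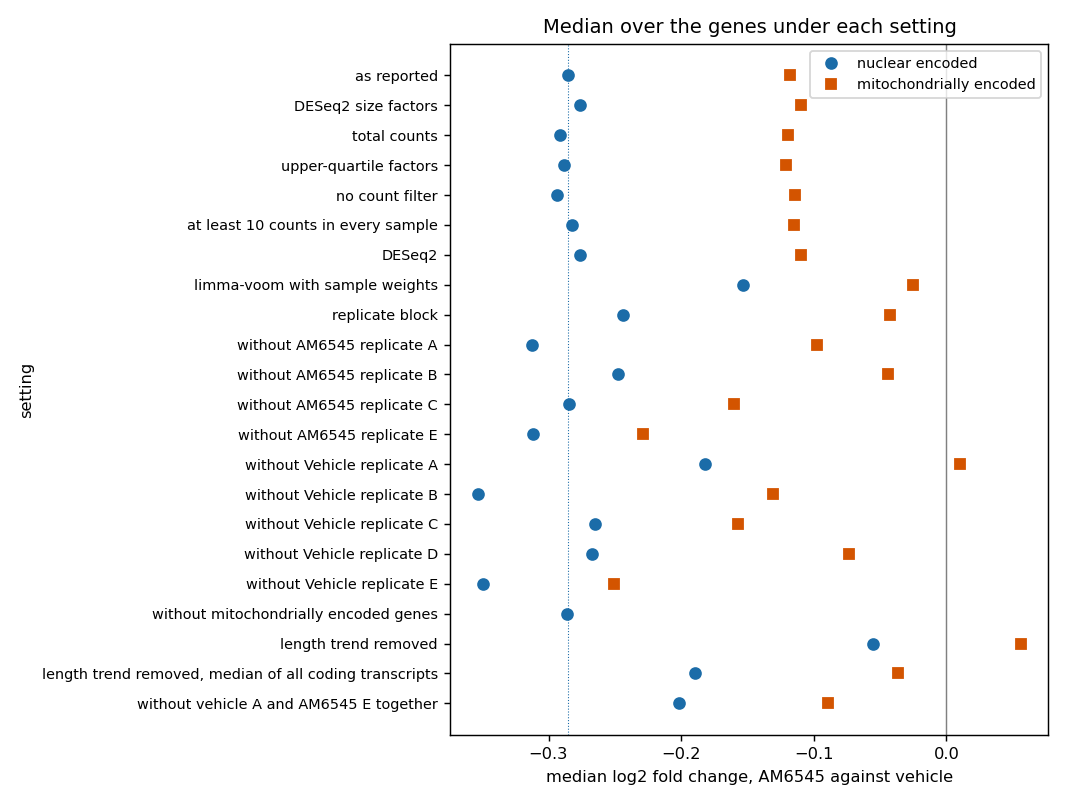
The median log2 fold change over nuclear (blue circles) and mitochondrially encoded members (orange squares) on the horizontal axis, for the reported fit and each other setting down the side. The nuclear median stayed below 0 in all settings drawn, from -0.35 without vehicle B to -0.06 with the length trend removed, and the mitochondrial median ran from -0.25 without vehicle E to 0.06 with the length trend removed.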

How the data were processed

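RNA of hippocampal synaptoneurosomes was sequenced from low-input libraries, per the labels' protocols. Salmon 1.3 and DESeq2 1.30 and the builds GRCm39 and mm10 are named in the submitters' processing notes, with no roles. The deposited values are the authors' estimated counts per gene (expected counts), not scaled between samples, and were rounded. Of the 22255 identifiers, 22155 had a symbol in GENCODE M21 or the name table. Because builds are ambiguous, gene coordinates are given only for RefSeq promoter windows. Genes were filtered with edgeR 4.0.16 (filterByExpr), scaled with TMM and tested with its quasi-likelihood test (R 4.3.3). SE came from the log2 fold change and F. Members and lists were chosen with earlier results of these data known. Named genes were those with the smallest unadjusted p (at most 10 a direction), the extremes and most abundant member of each complex, the mitochondrially encoded genes, isoform families and catalytic cores. Similar transcripts were found with blastn 2.17.0 (95% identity, 200 bases). Length trends were lowess fits (span 0.3) per sample. In simulated data (14408 genes) the test recovered 45% of genes changed 1.5-fold and 90% changed 2-fold. Each simulated gene was drawn independently, without differences between samples that many genes share, and no change under 1.5-fold was simulated. These rates therefore do not give the power for the members here. Other settings were size factors, filters, DESeq2 1.42.0, limma 3.58.1 (voom with sample weights), the replicate block, each sample left out, and removal of mitochondrially encoded genes. The values of 1 member are not reported here singly, and it is kept in all counts and medians over members.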

Additional observations from a re-analysis of the deposited data

Results flagged for a closer look

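In 4 of 118 groups of values, 1 sample stood apart from the others by a range-based criterion (Dixon's ratio at the 95% level), where chance gives about 1 in 20, or 5.9. Uqcrfs1, the Rieske protein of complex III, was at 167 CPM in AM6545 E, against 227 to 236 CPM in the other AM6545 samples. Ndufs3, a core subunit of complex I, was at 116 CPM in AM6545 E, against 148 to 154 CPM. Cox7a2l was at 96.6 CPM in AM6545 E, against 101.6 to 102.3 CPM. Sdhb of complex II was at 291 CPM in vehicle D, where the remaining 4 vehicle samples had 236 to 249.6 CPM.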

How the results depend on the processing

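The nuclear median log2 fold change was negative under every setting run, from -0.35 without vehicle B to -0.06 with the length trend removed, and no member passed an adjusted p of 0.05 under any. Of single-gene values under other settings, 1005 kept their direction and 72 changed it. The lower calls at an unadjusted p under 0.05 numbered 30 as reported, 4 with limma-voom sample weights, 18 with the replicate block, 3 with the length trend removed, 14 with it removed by the median of all coding transcripts, 11 without vehicle A and AM6545 E together, and 5 to 47 with 1 sample left out. Of all tested genes 4.18%, 6.08%, 3.12%, 3.16%, 3.57% and 3.37% were lower in the same order, and 1.82% to 6.83% with 1 sample left out. The 4 of 94 members with sample weights lay under that share, and the 3 of 94 with the length trend removed lay near it. The higher calls numbered 0 as reported, 1 with limma-voom sample weights, 2 with the length trend removed, 2 without vehicle A and AM6545 E, and 0 to 2 with 1 sample left out. In both directions 7.21%, 12.6%, 5.63% and 8.59% of all tested genes passed in the same order, and 3.43% to 12.6% with 1 sample left out. With the length trend removed the medians were -0.0553 over nuclear members, -0.061 for complex I, -0.0293 for III, -0.0861 for IV and -0.0581 for V, and with sample weights complex III was at -0.1341. The cause was not tested.

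Single genes changed sign as follows, in log2 fold change. With the length trend removed: Ndufb9 0.0713, Cox8a 0.0621, mt-Nd1 0.0548, mt-Co1 0.0191, mt-Co2 0.111, mt-Atp8 0.2841, mt-Atp6 0.1283, mt-Co3 0.0564, mt-Nd3 0.0622, mt-Nd5 0.0099, mt-Nd6 0.1384, mt-Cytb 0.0466, mt-Nd4l 0.2934, Cox6b1 0.0071, Ndufa4l2 0.0867, Atp5g2 0.125, Atp5g3 0.0434, Ndufs3 0.0614, Ndufs7 0.0741, Ndufs8 0.0595, Sdhb 0.0721 and Uqcrfs1 0.0074. With it removed by the median of all coding transcripts: Cyc1 0.003, mt-Nd4l 0.0365, Ndufa4l2 0.0185 and Sdhb 0.0186. With limma-voom sample weights: Cyc1 0.0749, mt-Co1 0.055, mt-Co2 0.0094, mt-Atp8 0.0081, mt-Nd5 0.0179, mt-Nd4l 0.1083, Atp5g2 0.0038, Ndufs3 0.0273, Ndufs8 0.003 and Sdhb 0.0476. With the replicate block: mt-Co1 0.0652, mt-Nd5 0.0264 and Sdhb 0.0146. Without vehicle A and AM6545 E together: Ndufa4l2 0.0714, Ndufs3 0.0369, Ndufs7 0.0364, Ndufs8 0.016, Sdhb 0.0559 and Uqcrfs1 0.0305. With 1 sample left out in turn: Cyc1 from -0.1663 to 0.0579, mt-Nd1 from -0.2393 to 0.0104, mt-Co1 from -0.1685 to 0.1081, mt-Co2 from -0.2684 to 0.0296, mt-Atp6 from -0.228 to 0.0174, mt-Co3 from -0.2857 to 0.008, mt-Nd4 from -0.2286 to 0.0343, mt-Nd5 from -0.17 to 0.0887, mt-Cytb from -0.1992 to 0.0491, Ndufa4l2 from -0.2947 to 0.2237, Ndufs3 from -0.1046 to 0.021, Sdhb from -0.0709 to 0.0605 and Uqcrfs1 from -0.1003 to 0.0505.

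The labels do not say what the letters shared by samples mark. Correlations of deviations from the group means were -0.0183 for A, 0.0374 for B, 0.336 for C and -0.0212 for E. Among vehicle A, B, C and E, 1 of 4 AM6545 samples correlated best with the vehicle sample of its own letter. Low correlations do not show that the letters mark no pair or batch. The replicate block rests on the letter alone, and it dropped the sample without a partner. Depth limits Cox6a1 (28 to 83 counts per sample) and the tissue isoforms of complex IV, none above 133 counts. Tested members otherwise had 468 counts or more in every sample.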
